A study of Mus musculus with 6 samples.

Results

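Genes of the acute inflammatory response were followed through injured mouse muscle: the cytokines Tnf, Il1a, Il1b and Il6, the interleukin-1 receptor antagonist Il1rn, the chemokines Cxcl1 and Cxcl2, the feedback inhibitors Nfkbia and Tnfaip3, and Ptgs2, the inducible cyclooxygenase. These 10 genes were taken by symbol from the 32286 genes and features counted in the series, and all 10 were present. RNA was counted in single cells of quadriceps muscle from 6 independent Cdh5-CreERT2:R26R-tdTomato mice, in which a tamoxifen-dependent recombinase driven from the endothelial Cdh5 promoter can switch on a red reporter. In all 6 mice the quadriceps was injured with cardiotoxin (CTX), a snake-venom toxin that destroys muscle fibres, and was collected 5 days later. The 3 CLL mice received clodronate liposomes into a vein 1 day before and 2 days after the injury. Clodronate liposomes are taken up by phagocytes, which the released drug kills, and the labels describe the ablation of circulating monocytes as partial. The 3 SHAM mice received liposomes filled with phosphate-buffered saline (PBS) on the same days. The comparison asks how the inflammatory genes differed when fewer monocytes could enter the muscle, and the macrophages compared in CLL mice are those that were present despite the treatment.

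The deposited matrices held 23873416 to 94841003 unique molecular identifiers (UMIs, counted RNA molecules) per library, and 3549 to 10148 cells per CLL library and 1848 to 19346 per SHAM library were kept, 46685 in all. Cells were clustered without the 10 genes among the variable genes, and clusters were given a class name with "-like" from marker lists. CLL replicate 2 and SHAM replicate 3 stood apart, with a median of 1624 and 879 UMIs per kept cell. In these libraries 51.8% and 81.7% of cells lay in clusters left without a name. Where a call of the 10 genes changed in a refit without both libraries, that result is also given. Differences of the CLL effect between classes were not refitted in this way, nor were the fibroblast/tenocyte-like and myogenic-like clusters. For pathway genes beyond the 10, no such refit is given. The macrophage/monocyte-like share of kept cells was 5.74% to 19.7% in CLL and 7.04% to 30.5% in SHAM, and overlapped. The summed macrophage marker level in that class was 22847 to 25930 CPM in CLL and 26989 to 31169.9 CPM in SHAM, with none of the 12 markers at 0 and no overlap, and the part of that gap in the results below was not tested. Levels are given as CPM, a gene's UMIs per 1000000 UMIs of that class in that library, and "passed" means a Benjamini-Hochberg adjusted p under 0.05 over all genes tested in edgeR's quasi-likelihood test of 3 against 3 mice.

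As background, tumour necrosis factor and the interleukin-1 cytokines bind receptors that release the transcription factor NF-kB from its inhibitor. NF-kB then switches on inflammatory genes, among them chemokines that draw neutrophils and the inhibitors that end the response. Nfkbia encodes IkB-alpha, which binds NF-kB and takes it out of the nucleus, and Tnfaip3 encodes A20, a ubiquitin-editing enzyme that acts further upstream. In injured muscle, infiltrating monocytes and macrophages are known as a main source of such cytokines early after damage, and stromal cells answer them.

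Promoters of the genes were searched for 1 form of the DNA element that NF-kB binds, GGG then any 2 bases then TTTCC, on both strands, with overlapping matches allowed, in the 250 bases before each start site (RefSeq, GRCm38.p6; the form was chosen after these promoters had been looked at). It was present in 6 of the 10 genes, namely Cxcl1, Cxcl2, Il6, Nfkbia, 1 of the 3 start sites listed for Il1rn and 1 of the 2 listed for Tnfaip3, and in 1.4% of 32536 promoters of different sequence. The first count is per gene with any listed start site allowed, and the second is per promoter, so they are unlike measures. The other 4 genes, Tnf, Il1a, Il1b and Ptgs2, held no such run of letters in this window, which says nothing of NF-kB at other sites. The 4 promoters below are shown because Cxcl1 and Nfkbia are described further on in both immune and stromal cells, Cxcl2 is the close relative of Cxcl1, and Il6 has the element but passed in no class tested. They are written 5′ to 3′ along the gene's strand, with the element in capitals.
Cxcl1, chr5:90890995-90891244, plus strand: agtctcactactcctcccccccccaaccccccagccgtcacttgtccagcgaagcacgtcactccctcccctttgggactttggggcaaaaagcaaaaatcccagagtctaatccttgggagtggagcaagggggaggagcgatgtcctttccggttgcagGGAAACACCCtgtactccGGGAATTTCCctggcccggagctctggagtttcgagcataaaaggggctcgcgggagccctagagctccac
Cxcl2, chr5:90903649-90903898, plus strand: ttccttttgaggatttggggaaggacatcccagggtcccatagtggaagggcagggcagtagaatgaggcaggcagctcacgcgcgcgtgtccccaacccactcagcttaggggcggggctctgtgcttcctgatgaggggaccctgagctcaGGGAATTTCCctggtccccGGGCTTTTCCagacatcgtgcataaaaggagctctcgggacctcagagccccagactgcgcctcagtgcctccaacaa
Nfkbia, chr12:55492648-55492897, minus strand: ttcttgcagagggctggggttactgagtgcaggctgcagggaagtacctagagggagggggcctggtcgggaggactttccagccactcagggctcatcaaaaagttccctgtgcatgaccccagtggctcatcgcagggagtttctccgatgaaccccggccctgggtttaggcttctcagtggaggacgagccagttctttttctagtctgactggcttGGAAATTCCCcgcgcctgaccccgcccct
Il6, chr5:30012864-30013113, plus strand: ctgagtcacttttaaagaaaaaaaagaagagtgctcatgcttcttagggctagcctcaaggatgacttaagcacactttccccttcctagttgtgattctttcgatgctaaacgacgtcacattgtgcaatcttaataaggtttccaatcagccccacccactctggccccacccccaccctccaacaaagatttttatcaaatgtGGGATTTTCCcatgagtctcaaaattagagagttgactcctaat
Cxcl1 and Cxcl2 share the run GGGAATTTCC, which begins 71 bases before the start site in Cxcl1 and 97 bases before it in Cxcl2. Nfkbia holds the same letters on the opposite strand, read as GGAAATTCCC, from 29 bases before its start site. A match is a run of letters and not a measured binding site.

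The 10 genes fell into those held mainly by myeloid cells and those shared with stroma. Macrophage/monocyte-like cells held 81.8% ± 10.1 of all Tnf UMIs in CLL and 78.7% ± 7.69 in SHAM (mean ± SD of 3 libraries), and for Il1a and Il1rn their share was 67.0% to 87.4% and 66.0% to 84.9% in CLL and 76.3% to 89.1% and 71.5% to 81.7% in SHAM. For Il1b it was 46.5% to 77.9% in CLL and 63.1% to 72.1% in SHAM, and dendritic-like cells held a further 4.84% to 13.2% and 10.5% to 22.5%. Fibroblast/tenocyte-like cells held 76.7% ± 4.68 of Il6 UMIs in CLL and 36.5% ± 14.3 in SHAM, where endothelial-like and mural-like cells held 11.3% to 19.8% and 8.51% to 20.7%. The fibroblast/tenocyte-like share of Cxcl1 UMIs was 67.9% ± 2.66 in CLL and 37.0% ± 10.5 in SHAM, and that of Ptgs2 UMIs 72.8% ± 2.09 and 28.1% ± 3.41. For these 3 genes every CLL library lay above every SHAM library. These shares follow the number of cells caught in each class, and fibroblast/tenocyte-like cells were 22.7% to 41.3% of kept cells in CLL and 3.96% to 19.8% in SHAM.

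**Figure D1:**
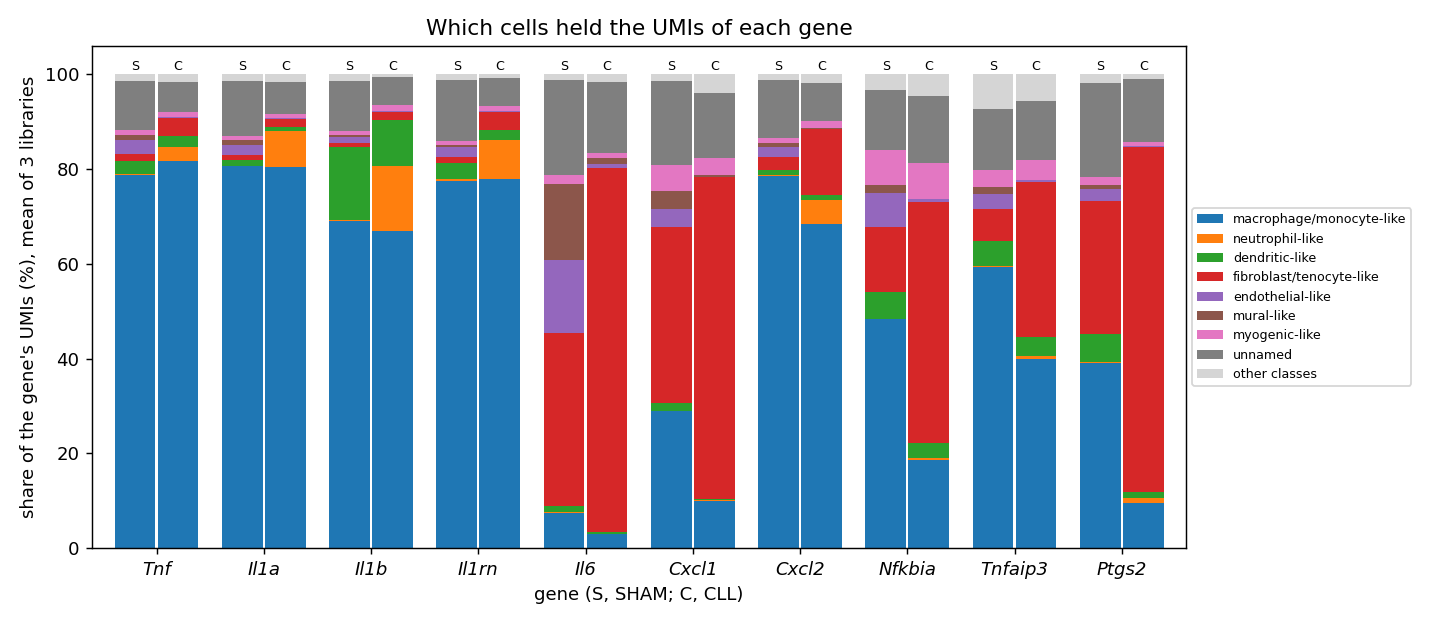
Share of each gene's UMIs (%, mean of 3 libraries) that lay in each cell class, as stacked bars for SHAM (S) and CLL (C). Tnf, Il1a, Il1b, Il1rn and Cxcl2 lay mainly in macrophage/monocyte-like cells in both groups, and Il6, Cxcl1 and Ptgs2 mainly in fibroblast/tenocyte-like cells in CLL.

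On the CPM scale, Cxcl2 was 6289.9 to 7214 CPM in CLL and 3784 to 5375 CPM in SHAM in macrophage/monocyte-like cells. Neutrophil-like cells lay above that in the CLL libraries, at 27492 to 39005 CPM, but below it in SHAM replicate 1, at 1852 CPM from 65 cells, the other SHAM libraries holding 1 and 0 such cells. In fibroblast/tenocyte-like cells it was 184 to 271 CPM in CLL and 104 to 226 CPM in SHAM. Cxcl1 was 877 to 1186 CPM in CLL and 531 to 697 CPM in SHAM in fibroblast/tenocyte-like cells and 690.4 to 969 CPM in CLL and 388 to 446 CPM in SHAM in macrophage/monocyte-like cells, and the ranges of these classes overlapped in CLL. Mural-like cells, the pericytes and smooth muscle cells around vessels, had Cxcl1 at 877 to 1765 CPM in CLL and 411 to 577 CPM in SHAM, and endothelial-like cells at 152 to 277 CPM in CLL and 119.8 to 195 CPM in SHAM. Il6 was highest in mural-like cells, at 0 to 494 CPM in CLL and 125 to 259 CPM in SHAM, from 16 to 52 cells per CLL library, and CLL replicate 2 had none. Nfkbia was found in every class. Tnfaip3 was highest in T/NK-like cells, at 402 to 1618 CPM in CLL and 461 to 872 CPM in SHAM, from 5 to 63 and 17 to 305 cells per library. These levels are descriptions with no test.

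**Figure D2:**
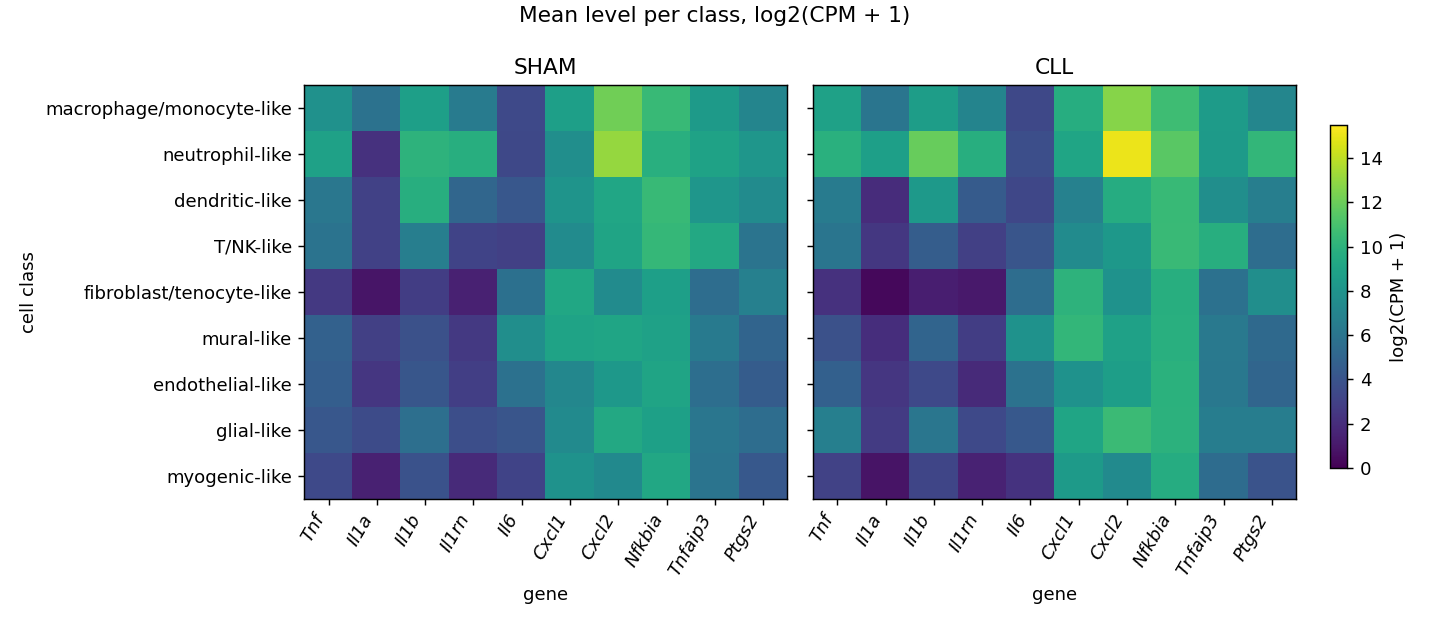
Mean level of the 10 genes in 9 cell classes (rows) as log2(CPM + 1), the mean of CPM over the libraries with cells, for SHAM (left) and CLL (right). Cxcl2 is brightest in neutrophil-like and macrophage/monocyte-like cells, the SHAM neutrophil-like mean resting on 65 cells of replicate 1, where the level was below that of macrophage/monocyte-like cells, and on 1 cell of replicate 2. Cxcl1 and Nfkbia are seen in every class.

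Free RNA in the suspension gives UMIs to cells that do not make a transcript, so each share of cells is set beside myogenic-like cells. With each cell drawn down to 1000 UMIs, Tnf had a UMI in 16.4% to 37.7% of macrophage/monocyte-like cells and in 0.254% to 0.931% of myogenic-like cells. For Il1b these were 9.37% to 25.4% and 0.294% to 1.26%, and for Ptgs2 6.81% to 14.2% and 0.596% to 4.24%. For Il6 they were 0.515% to 1.41% and 0.195% to 1.53%, so the macrophage/monocyte-like share of Il6 cannot be told from the myogenic-like share. The part of free RNA in it was not tested. Median depths before drawing down were 4936 to 9822.5 UMIs per cell in CLL and 2688 to 18809 in SHAM for macrophage/monocyte-like cells, and 1764.5 to 14852 and 3143 to 18081 for myogenic-like cells. In fibroblast/tenocyte-like cells Il6 had a UMI in 3.30% to 5.14% of cells, above its myogenic-like share, while Tnf, Il1a, Il1b and Il1rn were each in under 1% of cells.

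In macrophage/monocyte-like cells Tnf and Cxcl1 rose in CLL mice, and no other member passed in either direction. 700, 583 and 1088 cells of CLL replicates 1, 2 and 3 and 5893, 447 and 434 of SHAM replicates 1, 2 and 3 entered the sums. Passing genes made up 4.5% of the 11625 genes tested there, 1.75% of them higher and 2.75% lower in CLL. The median log2 fold was 0.24 over the 10 members and -0.004 over all genes tested.

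Tnf (chr17:35199381-35202007), the cytokine that gives the tumour necrosis factor family its name, stood at 525, 389.7 and 483 CPM in CLL replicates 1, 2 and 3 and 226, 271 and 185 CPM in SHAM replicates 1, 2 and 3. Every CLL library lay above every SHAM library, with a log2 fold of 1.02 ± 0.22 (SE) with an edgeR adjusted p of 0.0291. Il1b (chr2:129364570-129371139), which encodes the secreted form of interleukin-1 that an inflammasome must cleave, stood at 481, 179 and 543 CPM in CLL replicates 1, 2 and 3 and 366, 635 and 262 CPM in SHAM replicates 1, 2 and 3. The groups overlapped widely, CLL replicate 2 being lowest and SHAM replicate 2 highest, and the log2 fold was -0.08 ± 0.44 (SE). Il1a (chr2:129299610-129309972), whose product acts as an alarm signal when cells break, was 33.2 to 80.5 CPM in CLL and 45.0 to 69.6 CPM in SHAM, also overlapping (log2 fold 0.22 ± 0.33 (SE), edgeR adjusted p = 0.764). The genes Gm14023 and Il1bos lie across Il1a and Il1b on the opposite strand, and the sources used here do not say whether counting used the strand. Il1rn (chr2:24336853-24351494), the antagonist that blocks the interleukin-1 receptor, was 161, 121 and 102 CPM in CLL replicates 1, 2 and 3 and 90.1, 90.4 and 74.1 CPM in SHAM replicates 1, 2 and 3. Its groups did not overlap, as for 23.5% of genes tested, but it did not pass (0.59 ± 0.19 (SE), edgeR adjusted p = 0.114). Il6 (chr5:30013114-30019981) was 6.20 to 11.3 CPM in CLL and 7.52 to 13.3 CPM in SHAM.

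Cxcl1 (chr5:90891241-90893115) and Cxcl2 (chr5:90903871-90905938) are neighbouring chemokine genes whose products bind CXCR2 on neutrophils. Cxcl1 stood at 969, 744 and 690.4 CPM in CLL replicates 1, 2 and 3 and 441, 446 and 388 CPM in SHAM replicates 1, 2 and 3. All 3 CLL libraries were above all 3 SHAM libraries, with a log2 fold of 0.91 ± 0.19 (SE) with an edgeR adjusted p of 0.0275. Cxcl2 was 7214, 6441 and 6289.9 CPM in CLL replicates 1, 2 and 3 and 4226, 5375 and 3784 CPM in SHAM replicates 1, 2 and 3. The groups again did not overlap, but SHAM replicate 2 came near to CLL replicate 3, and Cxcl2 did not pass (0.55 ± 0.23 (SE), edgeR adjusted p = 0.194). The sources used here do not say how reads matching both genes were counted. The neutrophil marker sum within these cells was 41.4 to 57.8 CPM in CLL and 53.8 to 62.3 CPM in SHAM, overlapping, with 1 of its 11 markers at 0, and the fibroblast marker sum was 1562 to 2427 and 1245 to 4661 CPM, also overlapping.

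Of the feedback inhibitors, Nfkbia (chr12:55489410-55492647) stood at 1766, 1403 and 1849 CPM in CLL replicates 1, 2 and 3 and 1355, 1470 and 1320.1 CPM in SHAM replicates 1, 2 and 3, with overlapping groups and a log2 fold of 0.27 ± 0.20 (SE) (edgeR adjusted p = 0.487). Tnfaip3 (chr10:19000910-19015657) was 312 to 406 CPM in CLL and 291 to 403 CPM in SHAM (log2 fold 0.09 ± 0.18 (SE)). Ptgs2 (chr1:150100031-150108227), which makes the prostaglandin precursor, was 97.5 to 182 CPM in CLL and 85.7 to 153 CPM in SHAM (log2 fold 0.08 ± 0.28 (SE)). Neither separated the groups. The edgeR calls of Tnf and Cxcl1 were lost without CLL replicate 1 (adjusted p 0.152 and 0.149), CLL replicate 3 (0.117 and 0.0764) or SHAM replicate 3 (0.103 and 0.101), and without both CLL replicate 2 and SHAM replicate 3 (0.0753 and 0.103), while their folds stayed between 0.88 and 1.26 and between 0.71 and 1.03 on the log2 scale.

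**Figure D3:**
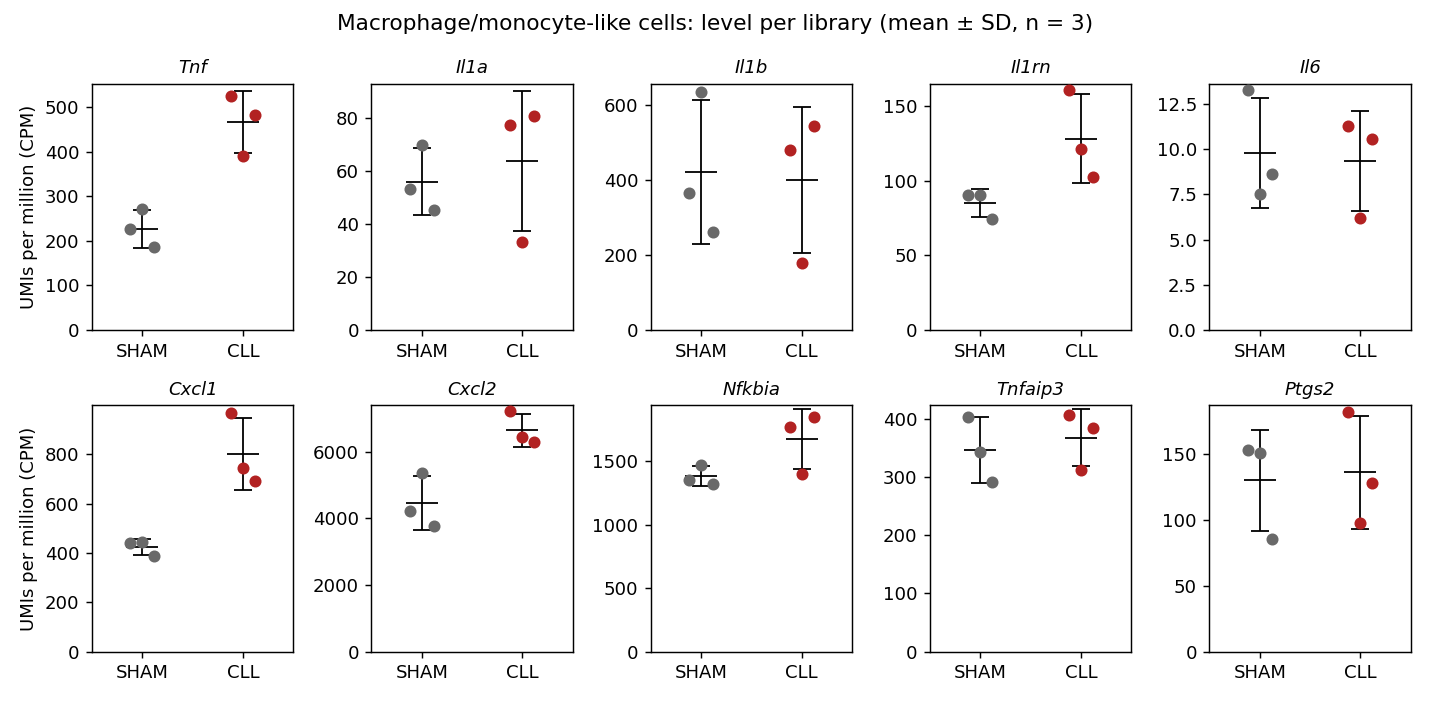
Level of each member (CPM) in macrophage/monocyte-like cells, with 1 point per library and the mean ± SD of 3 libraries, SHAM in grey and CLL in red, each axis starting at 0. Tnf, Il1rn, Cxcl1 and Cxcl2 have all CLL points above all SHAM points, and the other 6 genes overlap.

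For Tnf, the share of cells with a UMI separated the groups once depth was made equal. Drawn down to 1000 UMIs, Tnf was in 37.7%, 28.4% and 35.7% of macrophage/monocyte-like cells of CLL replicates 1, 2 and 3 and in 18.8%, 21.4% and 16.4% of SHAM replicates 1, 2 and 3. No SHAM library reached a CLL library. Cxcl1 was in 43.2%, 34.5% and 34.6% and 25.7%, 19.1% and 22.9%, and in 16.9% to 21.9% of myogenic-like cells. The SHAM shares of Cxcl1 overlapped those of myogenic-like cells, and the CLL shares lay above both. Dendritic-like shares of Cxcl1 lay below the myogenic-like ones, so the myogenic-like level is no floor of free RNA for this gene. The part of free RNA in the macrophage/monocyte-like shares was not tested. Cells under 1000 UMIs were left out, 5585 of 5893 cells staying in SHAM replicate 1, which lost most. Without drawing down, Tnf was in 64.3% to 86.3% of CLL cells and 40.1% to 77.6% of SHAM cells, and the groups overlapped.

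The macrophage/monocyte-like class holds 3 large clusters whose mix differed between mice, so the comparison was repeated inside each. The cluster led by Ifnb1, Il1b and Cx3cr1 made up 33.1% of the class in CLL and 54.2% in SHAM on average, that led by Mmp12 and Gpnmb 27.7% and 22.9%, and that led by F13a1, Cbr2 and Cd163 34.8% and 21.4%. Il1b is itself among the leading genes of the first, so its level across clusters is no result. Tnf and Cxcl1 rose in all 3 clusters, Il1rn in 2 and Cxcl2 in 1. Passing genes were 3.65%, 1.73% and 5.02% of those tested in the clusters in this order, those higher in CLL 1.42%, 0.711% and 1.75%, and those whose groups did not overlap 20.4%, 18.7% and 22.1%.

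In the cluster led by Ifnb1, Tnf was 672, 536 and 624 CPM in CLL replicates 1, 2 and 3 and 266, 315 and 211 CPM in SHAM replicates 1, 2 and 3. No CLL value came near a SHAM value, and the log2 fold was 1.24 ± 0.20 (SE) (edgeR adjusted p = 0.00693). Cxcl1 there was 1296, 1127 and 856 CPM in CLL replicates 1, 2 and 3 and 444, 514 and 346 CPM in SHAM replicates 1, 2 and 3, with a log2 fold of 1.34 ± 0.21 (SE) with an edgeR adjusted p of 0.00628. Il1rn was 247, 162 and 146 CPM in CLL replicates 1, 2 and 3 and 112, 101 and 87.5 CPM in SHAM replicates 1, 2 and 3 and passed (log2 fold 0.93 ± 0.21 (SE), edgeR adjusted p = 0.0291). Cxcl2 did not pass there (log2 fold 0.83 ± 0.22 (SE), edgeR adjusted p = 0.0589), although no CLL and SHAM values overlapped. The immediate early and heat shock sum, a list of genes that dissociation can induce, was 5985 to 7166 CPM in CLL and 7877 to 9431 CPM in SHAM in this cluster, with no overlap, and its part in these results was not tested.

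In the Mmp12-led cluster Tnf was 456, 378 and 402 CPM in CLL replicates 1, 2 and 3 and 184, 190.5 and 165 CPM in SHAM replicates 1, 2 and 3 (log2 fold 1.20 ± 0.15 (SE), edgeR adjusted p = 0.00264). CLL lay wholly above SHAM. Cxcl1 was 625 to 915 CPM in CLL and 419 to 441 CPM in SHAM (log2 fold 0.83 ± 0.17 (SE), edgeR adjusted p = 0.0302), and Il1rn overlapped between groups, at 79.9 to 121 CPM in CLL and 60.8 to 82.0 CPM in SHAM. In the F13a1-led cluster, whose leading genes are known from resident-type macrophages, Tnf was 421, 326 and 424 CPM in CLL replicates 1, 2 and 3 and 190.2, 217 and 179 CPM in SHAM replicates 1, 2 and 3 (log2 fold 1.00 ± 0.17 (SE), edgeR adjusted p = 0.00271). Cxcl2 was 7677, 6796 and 7150.4 CPM in CLL replicates 1, 2 and 3 and 4991, 3909 and 4033 CPM in SHAM replicates 1, 2 and 3 and passed there (log2 fold 0.75 ± 0.16 (SE), edgeR adjusted p = 0.0126). Cxcl1 (log2 fold 0.82 ± 0.20 (SE)) and Il1rn (0.73 ± 0.19 (SE)) passed in that cluster too, with edgeR adjusted p of 0.0281 and 0.0396. Without CLL replicate 2 and SHAM replicate 3, Tnf in the F13a1-led cluster was the only one of the 9 calls that held (edgeR adjusted p = 0.0238). Leaving out 1 library ended the call of Tnf in the Ifnb1-led cluster (without CLL replicate 1 or 3, edgeR adjusted p = 0.0854 and 0.0667) and of Cxcl1 there (without CLL replicate 1, 0.0732), while Tnf in the other 2 clusters passed whichever library was left out. The calls of Il1rn in both clusters, of Cxcl1 in the Mmp12-led and F13a1-led clusters and of Cxcl2 were each ended by leaving out CLL replicate 1 or CLL replicate 3, and all but that of Cxcl2 also by leaving out SHAM replicate 3. Without CLL replicate 2, Cxcl1 in the Mmp12-led and F13a1-led clusters and Il1rn in the F13a1-led cluster were lost too (edgeR adjusted p = 0.0852, 0.0858 and 0.0802). Other settings ended calls too: that of Il1rn in the Ifnb1-led cluster without doublet removal (edgeR adjusted p = 0.0501), that of Cxcl1 in the Mmp12-led cluster with the replicate block (0.1) and that of Cxcl1 in the F13a1-led cluster with scaling to total UMIs (0.0569). That of Il1rn in the F13a1-led cluster was lost with DESeq2 (adjusted p = 0.0562) and, in edgeR, with scaling to total UMIs (0.0517), the replicate block (0.0516) or no doublet removal (0.0632). Il6 had log2 folds of 0.93, -0.48 and -0.99 in the 3 clusters, none of which passed, and the difference between clusters was not tested.

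**Figure D4:**
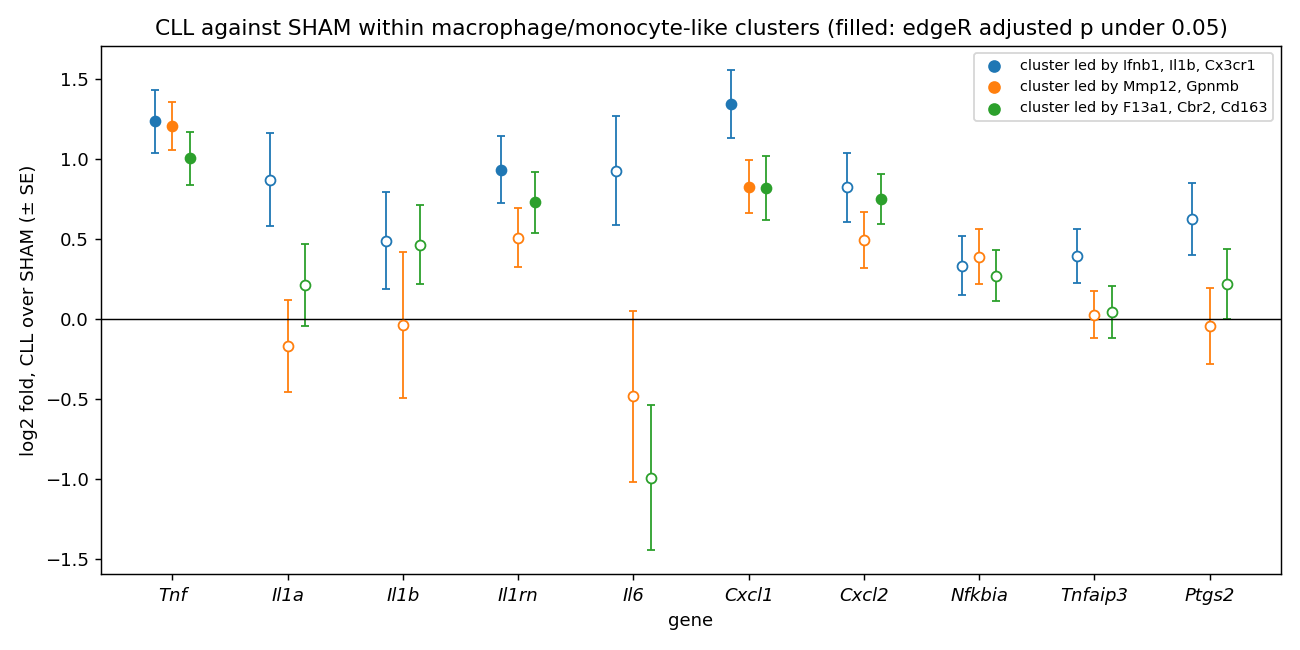
Log2 fold of CLL over SHAM (± SE, 3 against 3 libraries) for each member within the 3 large macrophage/monocyte-like clusters, filled where the edgeR adjusted p is under 0.05. Tnf and Cxcl1 are filled in all 3 clusters, Il1rn in 2 and Cxcl2 in 1.

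In fibroblast/tenocyte-like cells Nfkbia, Cxcl1 and Ptgs2 rose in CLL mice and Il1b fell. These were 4 of the 9 members tested, against 26.1% of the 14157 genes tested there, 12.1% of which were higher and 13.9% lower in CLL. The median log2 fold was 0.32 over these 9 and -0.026 over all genes. Nfkbia stood at 827, 891 and 853 CPM in CLL replicates 1, 2 and 3 and 392, 413 and 490.4 CPM in SHAM replicates 1, 2 and 3. Every CLL value was far above every SHAM value, as the groups did not overlap for 42.5% of genes tested, with a log2 fold of 1.08 ± 0.13 (SE) with an edgeR adjusted p of 0.000376. Cxcl1 was 1082, 1186 and 877 CPM in CLL replicates 1, 2 and 3 and 531, 566 and 697 CPM in SHAM replicates 1, 2 and 3. Again the groups did not overlap, and the log2 fold was 0.90 ± 0.16 (SE) (edgeR adjusted p = 0.00243). Ptgs2 was 242, 208 and 163 CPM in CLL replicates 1, 2 and 3 and 154, 89.4 and 75.7 CPM in SHAM replicates 1, 2 and 3. SHAM replicate 1 lay just below the lowest CLL value, and the log2 fold was 1.04 ± 0.23 (SE) (edgeR adjusted p = 0.00782). The Ptgs2 call was lost without CLL replicate 2 and SHAM replicate 3 (edgeR adjusted p = 0.0558). The immediate early and heat shock sum in these cells was 9564 to 10125 CPM in CLL and 10322 to 11590.2 CPM in SHAM, with no overlap, and its part in these calls and in those of other pathway genes below was not tested. Of the 17 genes in that list 6 passed higher and 1 lower in CLL, with a median log2 fold of -0.057. The lower sum therefore does not stand for each gene of the list.

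Il1b in fibroblast/tenocyte-like cells was near the bottom of the scale, at 0.849, 1.32 and 2.26 CPM in CLL replicates 1, 2 and 3 and 10.9, 2.73 and 4.70 CPM in SHAM replicates 1, 2 and 3. CLL lay below SHAM, with a log2 fold of -2.0 ± 0.45 (SE) with an edgeR adjusted p of 0.00856. The summed level of the 12 macrophage markers in these cells was 70.6 to 104 CPM in CLL and 146 to 617 CPM in SHAM, with none at 0, and its part in the Il1b result was not tested. The call was lost without doublet removal (log2 fold -1.33, edgeR adjusted p = 0.155) and without SHAM replicate 1 (log2 fold -1.24, edgeR adjusted p = 0.0527). Il6, which muscle stromal cells are known to secrete, was 57.3, 40.1 and 42 CPM in CLL replicates 1, 2 and 3 and 55.4, 63.1 and 38.1 CPM in SHAM replicates 1, 2 and 3. Its groups overlapped, and the log2 fold was -0.08 ± 0.20 (SE) (edgeR adjusted p = 0.802). Tnfaip3 (0.32 ± 0.16 (SE)) and Cxcl2 (0.55 ± 0.23 (SE)) did not pass.

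Different clusters held most fibroblast/tenocyte-like cells in the 2 groups. Those led by Ndufa4l2 and by Sfrp2 made up 50.9% and 24.6% in CLL and 9.28% and 1.70% in SHAM on average, while that led by Dlk1 and Agtr2 made up 16.9% and 79.3%. Inside the Dlk1-led cluster, a comparison added after the data had been seen, Nfkbia was 717, 613 and 702 CPM in CLL replicates 1, 2 and 3 and 359.8, 385 and 498 CPM in SHAM replicates 1, 2 and 3. The groups stayed apart (log2 fold 0.78 ± 0.16 (SE), edgeR adjusted p = 0.0132, against 6.71% of genes passing, 3.36% upward, and 26.6% without overlap). The immediate early and heat shock sum there was 11006 to 11358 and 11583 to 12657 CPM, again with no overlap. Of its 17 genes 1 passed higher and 0 lower in CLL in this cluster, with a median log2 fold of 0.085. Ptgs2 passed there too (log2 fold 0.76 ± 0.19 (SE), edgeR adjusted p = 0.0352). Cxcl1 did not pass (log2 fold 0.50 ± 0.18 (SE), edgeR adjusted p = 0.114), its values of 759.9 to 865 CPM in CLL and 485 to 762 CPM in SHAM overlapping through SHAM replicate 3. Il1b did not pass there either (-1.77 ± 0.55 (SE), edgeR adjusted p = 0.0756). In the small cluster led by Kera no member passed, with 1.27% of genes passing.

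In endothelial-like cells none of the 8 members tested passed, and 0.395% of all 9360 genes did, 0.0641% upward and 0.331% downward. Only 40, 205 and 58 cells stood for the CLL mice. Nfkbia was 929.7, 656 and 1233 CPM in CLL replicates 1, 2 and 3 and 629, 423 and 569 CPM in SHAM replicates 1, 2 and 3. All CLL values were above all SHAM values, as for 17.9% of genes tested, with a log2 fold of 0.95 ± 0.27 (SE) with an edgeR adjusted p of 0.238. Deviations of same-numbered libraries correlated at 0.14, 0.30 and 0.17 in this class. The labels state no pairing, and libraries of unlike number reached 0.24 in myogenic-like cells. With the replicate number as a block, given only as an alternative fit, endothelial-like Nfkbia passed (log2 fold 0.92, edgeR adjusted p = 0.0494), as did 124 genes in all against 37. Nfkbia also passed with DESeq2 without the block (adjusted p = 0.0488), where 22 genes passed upward and 49 downward. The lymphatic marker sum in these cells was 9.50 to 2346 CPM in CLL and 35.4 to 316 CPM in SHAM, and its part in these values was not tested.

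In myogenic-like cells, the muscle stem cells and their progeny, none of 9 members passed, and 6.26% of 11094 genes did, 2.87% upward and 3.39% downward. Cxcl1 came nearest, at 421, 313 and 294 CPM in CLL replicates 1, 2 and 3 and 284, 245 and 198 CPM in SHAM replicates 1, 2 and 3. The groups did not overlap, as for 31.6% of genes tested, and the log2 fold was 0.66 ± 0.19 (SE) (edgeR adjusted p = 0.069). It passed with DESeq2 (adjusted p = 0.0157). In the Pax7-led cluster, the larger of the class, no member passed either, with 11.1% of genes passing.

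In dendritic-like cells none of 9 members passed, and 1.62% of 7525 genes did, 0.306% upward and 1.32% downward. Their median log2 fold was -0.63, and -0.022 over all genes. Il1b was 351, 304 and 337 CPM in CLL replicates 1, 2 and 3 and 693, 1228 and 594 CPM in SHAM replicates 1, 2 and 3. CLL lay below SHAM throughout, the groups not overlapping for 16.6% of genes tested, with a log2 fold of -1.22 ± 0.34 (SE) with an edgeR adjusted p of 0.0822, and an adjusted p of 0.0333 in DESeq2. Without CLL replicate 2 and SHAM replicate 3 it passed in edgeR (adjusted p = 0.043). Cxcl1 was 129.6, 129 and 73.8 CPM in CLL replicates 1, 2 and 3 and 200, 158 and 428 CPM in SHAM replicates 1, 2 and 3. SHAM replicate 3, with 46 cells, was far above the rest, and the log2 fold was -1.09 ± 0.36 (SE) (edgeR adjusted p = 0.159). Drawn down to 1000 UMIs, the share of cells with a Cxcl1 UMI was 8.52% to 14.5% in CLL and 7.66% to 14.9% in SHAM, overlapping. Both lay below the myogenic-like share, which therefore gives no floor of free RNA for Cxcl1. The part of free RNA in the dendritic-like Cxcl1 values was not tested. Cd209a, a marker of monocyte-related and conventional dendritic cells, was 32.2 to 162 CPM in CLL and 319 to 515 CPM in SHAM, while Ccr7, a marker of migrating dendritic cells, was 133 to 651 and 362 to 484 CPM. The summed macrophage markers were 856 to 3047 and 1221 to 3763 CPM, and the summed fibroblast markers 2061 to 5145 and 3594 to 10106 CPM with SHAM replicate 3 highest. The immediate early and heat shock sum was 5139.8 to 6084 and 7385 to 7958 CPM, with no overlap. The part of these in the Il1b and Cxcl1 values was not tested.

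The CLL effect itself was compared between classes, with the library as a block. For Cxcl1 the log2 fold in macrophage/monocyte-like cells exceeded that in dendritic-like cells by 1.92 ± 0.32 (SE), with an edgeR adjusted p of 0.00329, and for Il1rn by 1.35 ± 0.29 (SE), with an edgeR adjusted p of 0.0164. These were 2 of the 10 members, against 1.87% of all genes. Against fibroblast/tenocyte-like cells no member passed, with 3.38% of genes passing. The Nfkbia fold was lower in macrophage/monocyte-like cells by a difference of -0.79 ± 0.19 (SE), with an adjusted p of 0.0584 in edgeR and 0.022 in DESeq2. For Cxcl1 that difference was 0.03 ± 0.20 (SE), and for Tnf 1.47 ± 0.49 (edgeR adjusted p = 0.14). Against endothelial-like cells no member passed either, with 0.658% of genes passing.

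**Figure D5:**
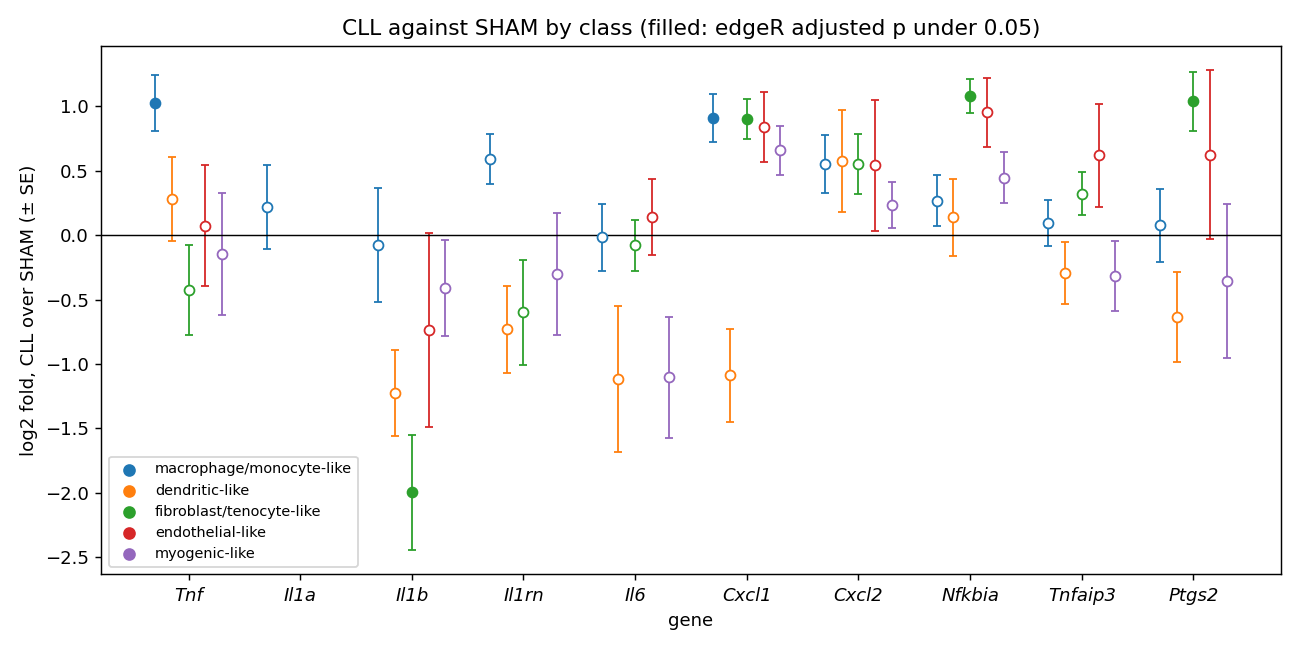
Log2 fold of CLL over SHAM (± SE, 3 against 3 libraries) for each member in the 5 classes with at least 20 cells in every library, filled where the edgeR adjusted p is under 0.05. Tnf is filled in macrophage/monocyte-like cells, Cxcl1 there and in fibroblast/tenocyte-like cells, and Nfkbia, Ptgs2 and the falling Il1b in fibroblast/tenocyte-like cells, and a member not tested in a class has no point.

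Neutrophil-like, mural-like, glial-like and T/NK-like cells were too few for a test, and their values are descriptions. Neutrophil-like cells numbered 24, 31 and 15 in the CLL libraries and 65, 1 and 0 in the SHAM libraries. Cxcl2 there was 27492, 39005 and 33538 CPM in CLL replicates 1, 2 and 3 and 1852 CPM in SHAM replicate 1, the SHAM library with more than 1 such cell. Il1b was 2853, 4375 and 4448 and 221 CPM. SHAM replicate 1 was the lowest of these 4 libraries for both. Camp, a granule gene of maturing neutrophils, was 16731 CPM in SHAM replicate 1, 2964 CPM in CLL replicate 1 and 0 in the other 2 CLL libraries, and Elane, a granule gene of their precursors, was 2240.2, 3282 and 0 CPM likewise. Granule genes thus differed between the libraries under this name, and the part of that in the Cxcl2 and Il1b values was not tested. In mural-like cells Nfkbia was 728 to 1107 CPM in CLL and 297 to 560.5 CPM in SHAM, and in glial-like cells, the Schwann-type cells of nerve, 671 to 1365 CPM in CLL and 339 to 644 CPM in SHAM. In both, CLL lay above SHAM for Nfkbia and Cxcl1, from 16 to 52 mural-like and 19 to 260 glial-like cells per CLL library. The share of all genes whose groups did not overlap was not counted in these classes. In the tested classes it was 16.6% to 42.5%, so no weight is put on this separation.

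Summed over all kept cells, Cxcl1 and Ptgs2 rose and Il1b, Il1rn, Cxcl2 and Tnfaip3 fell in CLL mice, 6 of 10 members against 36.6% of 16687 genes, 17.6% higher and 19.0% lower. Cxcl1 was 920.4, 1039 and 709 CPM in CLL replicates 1, 2 and 3 and 399, 406 and 428 CPM in SHAM replicates 1, 2 and 3, with a log2 fold of 1.17 ± 0.16 (SE) with an edgeR adjusted p of 0.00111. Il1rn was 22.9, 12.5 and 15.9 CPM in CLL replicates 1, 2 and 3 and 34, 29.7 and 28.4 CPM in SHAM replicates 1, 2 and 3, with a log2 fold of -0.77 ± 0.21 (SE) with an edgeR adjusted p of 0.0211. For Cxcl1 CLL lay above SHAM, and for Il1rn below it, while the groups did not overlap for 50.4% of all genes. Cxcl2 (log2 fold -0.58 ± 0.16 (SE)) and Tnfaip3 (-0.68 ± 0.17 (SE)) fell with edgeR adjusted p of 0.0223 and 0.0157, and Il1b (-1.32 ± 0.45 (SE)) with 0.049, a call that was lost without any 1 library other than CLL replicate 2 (adjusted p up to 0.145), with DESeq2 (0.0671), with the replicate block (0.096) and without doublet removal (0.0668). The call of Il1rn was lost without CLL replicate 3 or SHAM replicate 1 (0.0733 and 0.0594), that of Cxcl2 without CLL replicate 3, SHAM replicate 2 or SHAM replicate 3 (0.0573, 0.0603 and 0.0548) and with the replicate block (0.0537), and that of Ptgs2 without CLL replicate 1 (0.0501). Without both CLL replicate 2 and SHAM replicate 3, Cxcl2 no longer passed (edgeR adjusted p = 0.0848) and Il1a did, with a log2 fold of -0.70 (edgeR adjusted p = 0.00852). Il1rn was higher in CLL in the macrophage/monocyte-like clusters where it passed and lower in the sum, and Cxcl2 likewise. In such sums fewer cells of a class and less RNA per cell cannot be told apart.

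Beyond the 10 members, 119 other genes of the pathway were listed: receptors, adaptors and kinases, NF-kB subunits, other inhibitors, mRNA-decay factors, inflammasome genes, prostaglandin genes, other ligands and immediate early genes. In macrophage/monocyte-like cells 109 of them were tested, 1 rose and 7 fell, with a median log2 fold of -0.06 against -0.004 over all genes, of which 1.75% rose and 2.75% fell. Tnip1, a partner of A20, rose, at 51.4 ± 7.90 against 30.8 ± 2.54 CPM (SD, n = 3; log2 fold 0.75, edgeR adjusted p = 0.0459). Bcl3, an atypical IkB protein, fell, at 20.3 ± 1.90 against 35.7 ± 1.12 CPM (SD, n = 3; log2 fold -0.81, edgeR adjusted p = 0.0173). Zfp36, which encodes tristetraprolin, a protein that hastens the decay of Tnf and chemokine mRNAs, fell, at 631 ± 88.8 against 985 ± 145 CPM (SD, n = 3; log2 fold -0.66, edgeR adjusted p = 0.0465). Map3k8, a kinase of the same signalling route, fell, at 50.5 ± 8.20 against 96.8 ± 6.91 CPM (SD, n = 3; log2 fold -0.96, edgeR adjusted p = 0.0122). Il18bp, which binds and blocks interleukin-18, fell, at 31.5 ± 6.85 against 77.5 ± 4.78 CPM (SD, n = 3; log2 fold -1.27, edgeR adjusted p = 0.00818). Hpgd, the enzyme that inactivates prostaglandins, fell, at 39.4 ± 6.76 against 85.5 ± 13.3 CPM (SD, n = 3; log2 fold -1.15, edgeR adjusted p = 0.0128). Il6st, the shared signalling receptor of the interleukin-6 family, and Btg2, an immediate early gene, were the other 2 that fell. The summed immediate early and heat shock list, which rises in many tissues on enzymatic dissociation, was 5853, 8286 and 5447 CPM in CLL replicates 1, 2 and 3. In SHAM it was 7472 to 8647 CPM. The groups overlapped through CLL replicate 2 alone, and the part of this sum in these calls was not tested. Calls of these other pathway genes are not given without CLL replicate 2 and SHAM replicate 3. In that setting genes called in macrophage/monocyte-like cells fell from 523 to 84.

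In fibroblast/tenocyte-like cells 15 of 111 such genes rose and 26 fell, beside 12.1% and 13.9% of all genes tested. Inside the Dlk1-led cluster 4 of 101 rose and 8 fell, beside 6.71% of all genes passing there, 3.36% upward. In the Kera-led cluster 0 of 59 passed. The values below are those of the whole class, whose cluster mix differed between the groups, and the part of that mix in them was not tested. Nfkb1, the NF-kB subunit p105/p50, was 125 ± 23.1 against 74.6 ± 8.99 CPM (SD, n = 3; log2 fold 0.84, edgeR adjusted p = 0.00281), and Ier3, an NF-kB target, 789 ± 57.0 against 442 ± 56.4 CPM (SD, n = 3; log2 fold 0.93, edgeR adjusted p = 0.000693); both rose. Cxcl3, a relative of Cxcl1, rose from a low level, at 5.13 ± 1.50 against 0.711 ± 0.536 CPM (SD, n = 3; log2 fold 2.76, edgeR adjusted p = 0.000912). Most other ligands that passed went the other way: of 12 tested, 2 rose and 6 fell, with a median log2 fold of -0.83. Hpgd rose here, at 20.1 ± 7.50 against 5.98 ± 0.739 CPM (SD, n = 3; log2 fold 1.82, edgeR adjusted p = 0.0007), and the difference from its fall in macrophage/monocyte-like cells was not tested. Socs3, an inhibitor of interleukin-6-type signalling, fell, at 213 ± 37.8 against 490 ± 99.6 CPM (SD, n = 3; log2 fold -1.11, edgeR adjusted p = 0.00211), and so did Zfp36, at 441 ± 20.9 against 756 ± 91.6 CPM (SD, n = 3; log2 fold -0.68, edgeR adjusted p = 0.00324). Lifr, the receptor of leukaemia inhibitory factor, fell, at 19.4 ± 0.532 against 67.9 ± 17.9 CPM (SD, n = 3; log2 fold -1.72, edgeR adjusted p = 0.000177). In myogenic-like cells 0 rose and 15 of 94 fell, beside 2.87% and 3.39% of all genes, and among those that fell were Zfp36, at 73.5 ± 19.6 against 244 ± 63.7 CPM (SD, n = 3; log2 fold -1.58, edgeR adjusted p = 0.00565), Socs3, at 58.5 ± 14 against 183 ± 24.0 CPM (SD, n = 3; log2 fold -1.51, edgeR adjusted p = 0.00451), and Bcl3, at 14.3 ± 1.39 against 40.6 ± 3.61 CPM (SD, n = 3; log2 fold -1.33, edgeR adjusted p = 0.00367). The immediate early and heat shock sum in myogenic-like cells was 3553 to 4091 CPM in CLL and 5458 to 6505 CPM in SHAM, with no overlap, and its part in these calls was not tested. In endothelial-like cells the 1 call of 86, beside 0.395% of all genes, was Icam1, an adhesion molecule for leukocytes, which rose, at 190 ± 39.9 against 74.4 ± 26.3 CPM (SD, n = 3; log2 fold 1.49, edgeR adjusted p = 0.0273). In dendritic-like cells 4 of 93 fell and none rose, beside 1.32% and 0.306% of all genes, Cd14, a co-receptor for bacterial products, among them, at 74.6 ± 17.5 against 198 ± 31.8 CPM (SD, n = 3; log2 fold -1.18, edgeR adjusted p = 0.0377).

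Over the 30 sums of 5 classes by 6 libraries, genes were ranked by the Pearson correlation of their log2(CPM + 1) with each member, as a description whose points share libraries and cells. Tnf was most like Rasgef1b (r = 0.970), Fyb (r = 0.968) and Plcl2 (r = 0.955). Il1b was most like Sema4d (r = 0.977), Fam49b (r = 0.972) and Slamf7 (r = 0.968). Cxcl1, which followed no single class, was most like Timp2 (r = 0.866), Rnase4 (r = 0.853) and Agpat2 (r = 0.848), and Il6 Colgalt2 (r = 0.915), Agmo (r = 0.900) and Lama4 (r = 0.900). Nfkbia was most like Sec11c (r = 0.869), Nfkbib (r = 0.855) and Grb2 (r = 0.853).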

How the data were processed

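The deposited values are raw counts, UMIs per gene and barcode in 6 matrices, which the authors made with Cell Ranger 6.1.2 on build mm10, per the submitters' processing notes, from 10x 3′ libraries of dissociated, Ficoll-cleaned muscle, per the labels' protocols. Kept barcodes had at least 300 detected genes and no more than 15% of UMIs from mitochondrial genes, and the highest Scrublet doublet scores were removed at 0.8% per 1000 barcodes (1.65% to 20.0% per library). Pairs of libraries shared 2 to 57 kept barcodes. Cells were clustered (scanpy 1.11.5, 2000 variable genes without the members, 30 components, 15 neighbours, Leiden resolution 1) into 28 clusters and named from marker lists. Thresholds for naming were chosen with the clusters in view. A cluster stayed unnamed where mitochondrial or ribosomal-RNA-like transcripts led it, where its list was weak, or where it carried markers of a second class, and other names could move values.

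Counts were summed per class and library and tested with edgeR 4.0.16 (TMM, filterByExpr, quasi-likelihood, CLL against SHAM, n = 3 mice each) where every library had at least 20 cells. Over samples alone, an exact permutation test of 3 against 3 cannot go below 0.10, so single values have no such test. Folds are from edgeR; CPM is unscaled beyond the total. In simulated counts for 11475 genes of the macrophage/monocyte-like comparison, 59 of 100 genes changed by a log2 fold of 1 and 94 of 100 changed by 2 were recovered, with 11 false calls. Same-numbered libraries correlated in their deviations at 0.14, 0.30 and 0.17 in endothelial-like cells, but not in every pair elsewhere. The labels state no pairing, and libraries of unlike number reached 0.24 in myogenic-like cells. Shares of cells are expectations after drawing each cell down to 1000 UMIs. Alternatives were DESeq2 1.42.0, other scaling, no filter, the block, left-out libraries, no doublet removal and deeper cells. Every member that passed the count filter of a tested class was tested there, and its fold is drawn by class. In the paragraphs on endothelial-like, myogenic-like and dendritic-like cells, folds are written only for the members nearest the threshold. Of the pathway lists, up to 3 genes per list with the smallest p were eligible in macrophage/monocyte-like cells and up to 2 elsewhere. The members and lists were chosen with earlier results of these data known. Gene positions are GENCODE vM21 on GRCm38.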

Additional observations from a re-analysis of the deposited data

Results flagged for a closer look

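The log2 fold of Cxcl1 differed between macrophage/monocyte-like and dendritic-like cells: that in the first minus that in the second was 1.92 ± 0.32 (SE), with an edgeR adjusted p of 0.00329 and 0.000909 in DESeq2. It was higher in 3 of 3 CLL libraries than in every SHAM library in the first class and lower in 3 of 3 in the second. For Il1rn the difference was 1.35 ± 0.29 (SE), with an edgeR adjusted p of 0.0164, with levels of 102 to 161 CPM in CLL and 74.1 to 90.4 CPM in SHAM in the first class and 12 to 27.6 CPM in CLL and 27.3 to 43.3 CPM in SHAM in the second; it did not pass in DESeq2 (adjusted p = 0.0539). Without doublet removal the log2 fold of Cxcl1 in dendritic-like cells was -0.36 in place of -1.09, and without SHAM replicate 3 it was -0.58. The difference between the classes was not refitted in either setting. At equal depth the share of dendritic-like cells with a Cxcl1 UMI, 7.66% to 14.9% over the 6 libraries, lay below that of myogenic-like cells, 16.9% to 21.9%, and did not separate the groups.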

How the results depend on the processing

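Of the recomputed log2 values of members, 984 kept their direction and their side of the threshold, 70 lost a call, 38 gained one and 58 changed sign, none of the last being past the threshold before or after. As reported, genes called numbered 523 in macrophage/monocyte-like cells, 122 in dendritic-like cells, 3688 in fibroblast/tenocyte-like cells, 37 in endothelial-like cells, 694 in myogenic-like cells, 6104 in all kept cells, members called 2 in macrophage/monocyte-like cells, 0 in dendritic-like cells, 4 in fibroblast/tenocyte-like cells, 0 in endothelial-like cells, 0 in myogenic-like cells, 6 in all kept cells, and calls summed over the macrophage/monocyte-like clusters 935 for genes and 9 for members. Scaled to total UMIs only, genes called numbered 324 in macrophage/monocyte-like cells, members called numbered 1 in dendritic-like cells and the log2 value changed sign for Nfkbia in dendritic-like cells (-0.0079), Tnf in endothelial-like cells (-0.079), Il6 in endothelial-like cells (-0.019). Without the filter on low counts, genes called numbered 1427 in macrophage/monocyte-like cells, 480 in dendritic-like cells, 239 in endothelial-like cells, 1550 in myogenic-like cells, members called numbered 2 in dendritic-like cells, 2 in myogenic-like cells, gene calls in the macrophage/monocyte-like clusters summed to 2159 and member calls there summed to 14. Without doublet removal, genes called numbered 315 in macrophage/monocyte-like cells, 50 in dendritic-like cells, 12 in endothelial-like cells, members called numbered 1 in myogenic-like cells and the log2 value changed sign for Tnf in endothelial-like cells (-0.45), Tnf in myogenic-like cells (0.022). With the replicate number as a block, genes called numbered 77 in dendritic-like cells, 124 in endothelial-like cells, 280 in myogenic-like cells, members called numbered 0 in macrophage/monocyte-like cells, 1 in endothelial-like cells and the log2 value changed sign for Il1b in the Mmp12-led cluster (0.020). In cells with at least 2000 UMIs, genes called numbered 202 in dendritic-like cells and the log2 value changed sign for Il6 in macrophage/monocyte-like cells (0.017), Il6 in all kept cells (0.029). With DESeq2, genes called numbered 71 in endothelial-like cells, members called numbered 1 in dendritic-like cells, 1 in endothelial-like cells, 1 in myogenic-like cells, members whose CLL effect differs, macrophage/monocyte-like minus fibroblast/tenocyte-like numbered 1, genes whose CLL effect differs, macrophage/monocyte-like minus dendritic-like numbered 111, members whose CLL effect differs, macrophage/monocyte-like minus dendritic-like numbered 1 and the log2 value changed sign for Cxcl1 in macrophage/monocyte-like minus fibroblast/tenocyte-like cells (difference) (-0.00055). Within the Dlk1-led fibroblast/tenocyte-like cluster, genes called numbered 797 in fibroblast/tenocyte-like cells and members called numbered 2 in fibroblast/tenocyte-like cells. Within the Kera-led fibroblast/tenocyte-like cluster, genes called numbered 81 in fibroblast/tenocyte-like cells, members called numbered 0 in fibroblast/tenocyte-like cells and the log2 value changed sign for Cxcl2 in fibroblast/tenocyte-like cells (-1.27), Tnfaip3 in fibroblast/tenocyte-like cells (-0.43). Within the Pax7-led myogenic-like cluster, genes called numbered 1173 in myogenic-like cells. Without drawing cells down, members whose share of macrophage/monocyte-like cells separated the groups numbered 0. Leaving out libraries, 1 at a time or CLL replicate 2 with SHAM replicate 3, genes called ranged over 39 to 648 in macrophage/monocyte-like cells, 5 to 590 in dendritic-like cells, 2289 to 3389 in fibroblast/tenocyte-like cells, 7 to 63 in endothelial-like cells, 158 to 996 in myogenic-like cells, 148 to 1668 summed over the macrophage/monocyte-like clusters, and members called over 0 to 2 in macrophage/monocyte-like cells, 0 to 2 in dendritic-like cells, 0 to 1 in myogenic-like cells, 3 to 8 in all kept cells, 1 to 12 summed over those clusters. Log2 folds that changed sign in these fits ranged over Il1b in macrophage/monocyte-like cells -0.37 to 0.46, Il6 in macrophage/monocyte-like cells -0.18 to 0.21, Tnfaip3 in macrophage/monocyte-like cells -0.031 to 0.24, Ptgs2 in macrophage/monocyte-like cells -0.23 to 0.30, Tnf in dendritic-like cells -0.17 to 0.54, Cxcl2 in dendritic-like cells -0.23 to 0.94, Nfkbia in dendritic-like cells -0.022 to 0.44, Tnf in fibroblast/tenocyte-like cells -0.76 to 0.26, Il6 in fibroblast/tenocyte-like cells -0.27 to 0.12, Tnf in endothelial-like cells -0.57 to 0.62, Il1b in endothelial-like cells -1.27 to 0.021, Il6 in endothelial-like cells -0.060 to 0.44, Cxcl2 in endothelial-like cells -0.55 to 1.06, Ptgs2 in endothelial-like cells -0.22 to 1.74, Tnf in myogenic-like cells -0.85 to 0.48, Ptgs2 in myogenic-like cells -1.25 to 1.01, Il6 in all kept cells -0.18 to 0.059, Il1a in the Mmp12-led cluster -0.36 to 0.20, Il1b in the Mmp12-led cluster -0.36 to 0.60, Tnfaip3 in the Mmp12-led cluster -0.069 to 0.14, Ptgs2 in the Mmp12-led cluster -0.33 to 0.17, Il1a in the F13a1-led cluster -0.087 to 0.59, Tnfaip3 in the F13a1-led cluster -0.033 to 0.19, Ptgs2 in the F13a1-led cluster -0.038 to 0.46. Apart from endothelial-like cells, same-numbered libraries did not all deviate together (correlations of -0.12 to 0.03 in macrophage/monocyte-like cells), and with the block Tnf and Cxcl1 there had edgeR adjusted p of 0.0682 and 0.0623. The cause of these changes was not tested, except that fits with fewer libraries rest on fewer mice. Some tested values rested on few UMIs per library, such as 2 to 180 for Il1b in endothelial-like cells, and Il6 had 22 to 248 UMIs per library in macrophage/monocyte-like cells.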

Other observations

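Cxcl1 UMIs per Cxcl2 UMI ran from 0.0829 to 0.134 over the 6 libraries in macrophage/monocyte-like cells, from 1.28 to 2.70 in myogenic-like cells and from 2.75 to 5.42 in fibroblast/tenocyte-like cells. The part of free RNA in these ratios was not tested. The antagonist Il1rn had 0.334, 0.680 and 0.188 UMIs per Il1b UMI in macrophage/monocyte-like cells of CLL replicates 1, 2 and 3 and 0.246, 0.142 and 0.283 in SHAM replicates 1, 2 and 3, overlapping, with CLL replicate 2 highest. Clusters left without a name held 2.53% to 12.8% of Tnf UMIs in CLL and 3.31% to 16.1% in SHAM, and 9.73% to 20.5% and 13% to 26.4% of Ptgs2 UMIs, the lowest SHAM share of both being in replicate 2.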
